A study of Drosophila melanogaster with 10 samples.

Results

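The Cpr genes of Drosophila melanogaster, a family of cuticular protein genes, were described in eye-antenna imaginal discs of early third-instar larvae. A gene was a member if the platform annotation gave a probe set that gene alone, with a symbol made of Cpr and a number. This rule, which uses no measured value, found 66 genes with 67 probe sets, of 11982 genes with a probe set of their own. Cpr47Ef had 2 probe sets and was represented by the one with the higher mean. The RefSeq gene table lists 70 Cpr genes, and the other 4 (Cpr57A, Cpr65Ax1, Cpr65Ax2 and Cpr65Ay) were not analysed here.

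Cpr genes encode secreted proteins of the cuticle with a Rebers-Riddiford consensus, a stretch that binds chitin. Epidermal cells secrete them with chitin at their apical surface, and different members are made for larval, pupal and adult cuticle around the moults, under the control of ecdysone pulses. In the eye-antenna disc, a larval epithelium from which the eye, the antenna and parts of the head of the fly develop, most cuticle is made after pupariation, and the corneal lens of each adult ommatidium is itself a cuticular structure. The number and letter in each symbol give the chromosome band of the gene. Roles of most members beyond this shared one are not well described, so none is given below unless stated.

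The study used 10 arrays, 2 biological replicates for each of 5 genotypes, with RNA from pools of 20 to 30 discs dissected at 96 h after egg laying. All genotypes carried ey-Gal4, the eyeless driver, which limits transgene expression to the cells in which it is active. They were ey-Gal4/UAS-COX7a-RNAi (v106661), called COX7a RNAi here, with a hairpin from 1 line against a subunit gene of cytochrome c oxidase. The next were ey-Gal4, UAS-Delta/UAS-GFP, called Delta, which overexpresses a Notch ligand, and the same ey-Gal4, UAS-Delta combination with that hairpin in place of UAS-GFP, called Delta with COX7a RNAi. The last were ey-Gal4/UAS-Notch[intra2], called Notch[intra2], which by its name expresses an intracellular form of the Notch receptor, and the control ey-Gal4/UAS-GFP, called GFP. COX7a RNAi, Delta with COX7a RNAi and Notch[intra2] discs carried no UAS-GFP in their labels, whereas Delta discs did. The comparisons ask how gain of Notch function and loss of COX7a, alone and together, alter expression.

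The labels were checked with the targeted genes. COX7A was 10.50 to 11.20 log2 units on the 4 arrays with the hairpin and 13.17 to 13.41 on the 6 without it. Delta was 12.72 to 13.26 on the 4 arrays with the Delta transgene and 11.10 to 11.46 on the other 6. Of the 10 eye-antenna disc markers with a probe set, 9 were above the intensity floor on all 10 arrays. The floor is set at 4.66 log2 units, the 40th percentile over all arrays, and stands in for detection calls. Pearson's r across genes was 0.997 to 0.998 between replicates and 0.989 to 0.997 between arrays of different genotypes.

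Expression above the floor was found for 44 Cpr genes on at least 2 arrays, 66.7% of the 66, against 72.6% of all genes. On all 10 arrays 36 members lay above it, namely Cpr100A, Cpr11A, Cpr12A, Cpr30F, Cpr31A, Cpr47Eb, Cpr47Ec, Cpr47Ee, Cpr47Eg, Cpr49Ac, Cpr49Ag, Cpr50Cb, Cpr51A, Cpr56F, Cpr5C, Cpr64Ab, Cpr64Ac, Cpr64Ad, Cpr65Av, Cpr65Aw, Cpr65Ea, Cpr65Eb, Cpr66Cb, Cpr66D, Cpr67B, Cpr67Fa2, Cpr72Ea, Cpr72Ec, Cpr76Ba, Cpr76Bb, Cpr76Bd, Cpr78Ca, Cpr78Cb, Cpr78E, Cpr92A and Cpr97Ea. A further 8 lay above it on 2 to 9 arrays (Cpr11B, Cpr47Ed, Cpr49Af, Cpr62Bc, Cpr65Ec, Cpr72Eb, Cpr76Bc and Cpr97Eb). On 1 array lay 6 members, Cpr30B, Cpr47Ef, Cpr49Ah, Cpr65Au, Cpr73D and Cpr78Cc, of which Cpr78Cc reached 5.75 on Delta replicate 1 and 4.02 to 4.44 elsewhere. The other 16 were at or below it on every array. These were Cpr23B, Cpr35B, Cpr47Ea, Cpr49Aa, Cpr49Ab, Cpr49Ad, Cpr49Ae, Cpr50Ca, Cpr60D, Cpr62Ba, Cpr62Bb, Cpr64Aa, Cpr65Az, Cpr67Fa1, Cpr67Fb and Cpr92F.

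Many of the members above the floor lay only just above it. At 6.39 log2 units, the 60th percentile over all arrays, 6 members remained above on all 10 arrays (Cpr100A, Cpr30F, Cpr31A, Cpr47Ee, Cpr64Ab and Cpr97Ea), and 10 more on some arrays (Cpr11A, Cpr11B, Cpr47Ec, Cpr47Eg, Cpr49Ac, Cpr56F, Cpr66D, Cpr67B, Cpr67Fa2 and Cpr78E). These 6 are 9.09% of the family, whereas 49.1% of all genes were above that level on all arrays. Cpr31A was above 9.04 log2 units, the 75th percentile, on all arrays, and 6 members were so on some arrays. Levels of different probe sets depend on their probes, so genes are set here against the floor and not against each other.

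**Figure D1:**
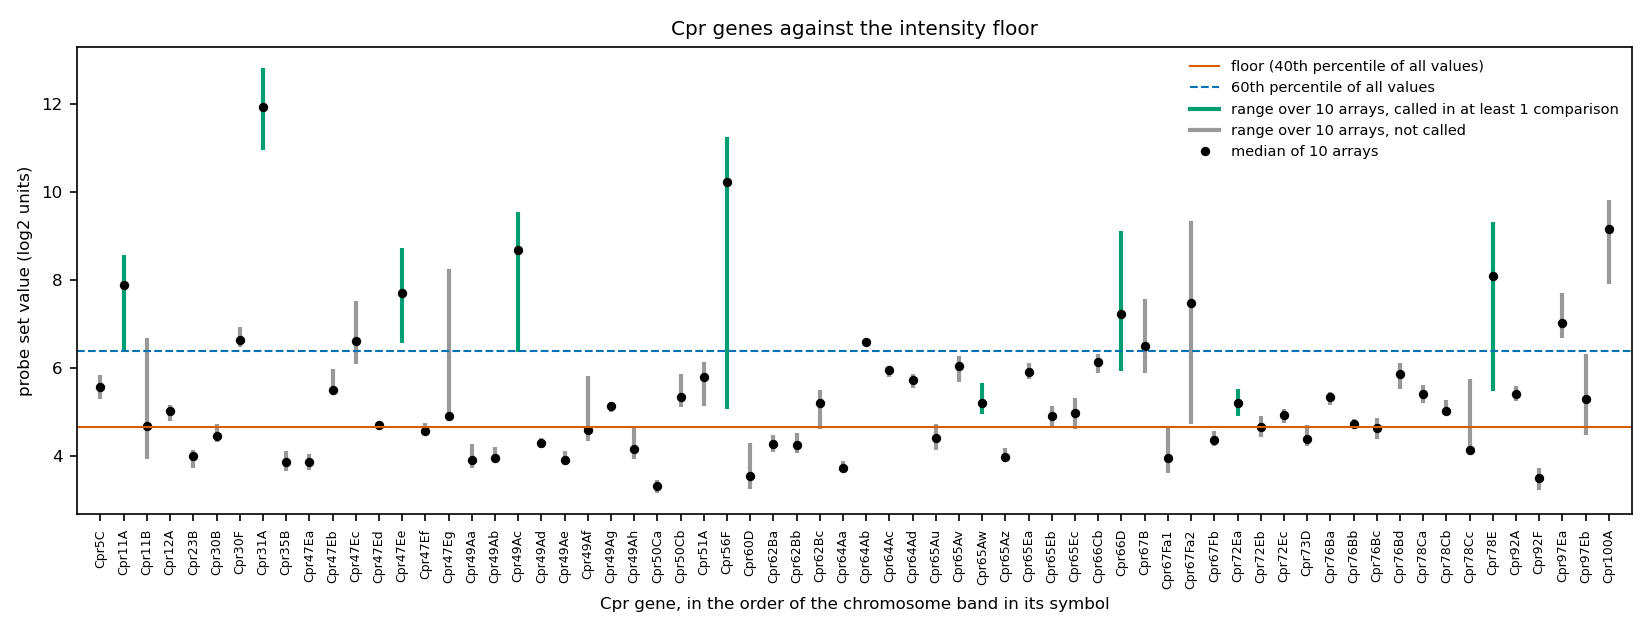
Probe set values (log2 units) of the 66 Cpr genes in the order of the band in their symbols, with bars from the lowest to the highest of the 10 arrays and dots at the median, against the floor of 4.66 and the 60th percentile of 6.39. Most bars are short and lie below the upper line, while those of Cpr56F, Cpr78E, Cpr66D, Cpr49Ac, Cpr67Fa2 and Cpr47Eg are long.

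Cpr genes moved in both directions in Notch[intra2] discs, with Cpr56F and Cpr66D higher and Cpr78E, Cpr49Ac and Cpr11A lower than in GFP discs. Of the 44 tested members, 4 were called higher, against 6.03% of all tested genes, and 5 were called lower, against 7.11% of all tested genes (limma, Benjamini-Hochberg adjusted p under 0.05 over 8702 genes). In either direction 20.5% of the tested members and 13.1% of all tested genes were called. The median log2 fold change was 0.04 over the tested members and 0.03 over all tested genes. In bulk samples such as these, fewer cells of a type and less RNA per cell cannot be told apart.

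Among the members called higher, Cpr56F had 11.09 and 11.25 log2 units in Notch[intra2] discs, against 7.05 and 7.02 in GFP discs. The log2 fold change was 4.13 ± 0.30 (SE, n = 2 each), a 17.6-fold higher signal (limma adjusted p = 7.4e-05), the largest change of any Cpr gene over the 7 comparisons made. Cpr66D, whose protein is a known component of the adult corneal lens, had 9.06 and 9.11 in Notch[intra2] discs, against 6.35 and 6.35 in GFP discs. It was 6.68-fold higher (log2 fold change 2.74 ± 0.31, limma adjusted p = 0.000769). Cpr72Ec, the other member known from the corneal lens, lay between 4.76 and 5.08 on all 10 arrays and differed by 0.06 ± 0.12 between Notch[intra2] and GFP (limma adjusted p = 0.794). The other calls in this direction were small and lay near the floor. Cpr65Aw had 5.67 and 5.60 in Notch[intra2] discs, against 5.18 and 5.21 in GFP discs, 1.35-fold higher (limma adjusted p = 0.0126). Cpr72Ea had 5.52 and 5.43 in Notch[intra2] discs, against 5.12 and 4.91 in GFP discs, 1.37-fold higher (limma adjusted p = 0.015).

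Among the members called lower, Cpr78E had the largest drop, with 6.12 and 5.48 log2 units in Notch[intra2] discs, against 9.32 and 9.01 in GFP discs. Its signal was 10.3-fold lower (log2 fold change -3.36 ± 0.62, SE, n = 2 each, limma adjusted p = 0.00921). Cpr49Ac had 6.36 and 6.63 in Notch[intra2] discs, against 8.97 and 8.76 in GFP discs, 5.19-fold lower (log2 fold change -2.37 ± 0.15, limma adjusted p = 3.38e-05). Cpr11A had 6.36 and 7.16 in Notch[intra2] discs, against 8.56 and 8.45 in GFP discs, 3.35-fold lower (log2 fold change -1.74 ± 0.22, limma adjusted p = 0.00121). In Cpr78E, Cpr49Ac and Cpr11A, and also in Cpr47Ee (below), the Notch[intra2] arrays were the lowest of all 10.

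Cpr47Ee and Cpr31A were called by a narrower margin. Cpr47Ee had 6.57 and 6.95 in Notch[intra2] discs, against 7.58 and 8.72 in GFP discs, 2.62-fold lower (log2 fold change -1.39 ± 0.38, limma adjusted p = 0.0456). Cpr31A had 10.96 and 11.57 in Notch[intra2] discs, against 12.02 and 12.81 in GFP discs, 2.22-fold lower (log2 fold change -1.15 ± 0.30, limma adjusted p = 0.0405). The GFP replicates differed by 1.13 in Cpr47Ee and by 0.80 in Cpr31A, close to the size of each change. Without GFP replicate 2 the log2 fold change was -0.83 for Cpr47Ee and -0.75 for Cpr31A, and neither gene was called. Both were also lost with all arrays kept, under eBayes without a trend (adjusted p = 0.0644 for Cpr47Ee and 0.0604 for Cpr31A), robust eBayes (0.0983 and 0.105) and the replicate block (0.0623 and 0.0575), and Cpr47Ee under quantile normalization (0.06). The calls of Cpr56F, Cpr66D, Cpr49Ac and Cpr11A in this comparison held under all 21 alternatives tried, and single arrays decided the others. Cpr31A and Cpr47Ee lost their calls without any one of GFP replicate 2 and the Delta, Delta with COX7a RNAi and Notch[intra2] arrays (limma adjusted p up to 0.23 and 0.225). Cpr78E lost its call without GFP replicate 1 or Notch[intra2] replicate 2 (up to 0.0706), Cpr65Aw without either GFP array or Notch[intra2] replicate 1 (up to 0.0841) and Cpr72Ea without GFP replicate 2 or either Notch[intra2] array (up to 0.108).

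**Figure D2:**
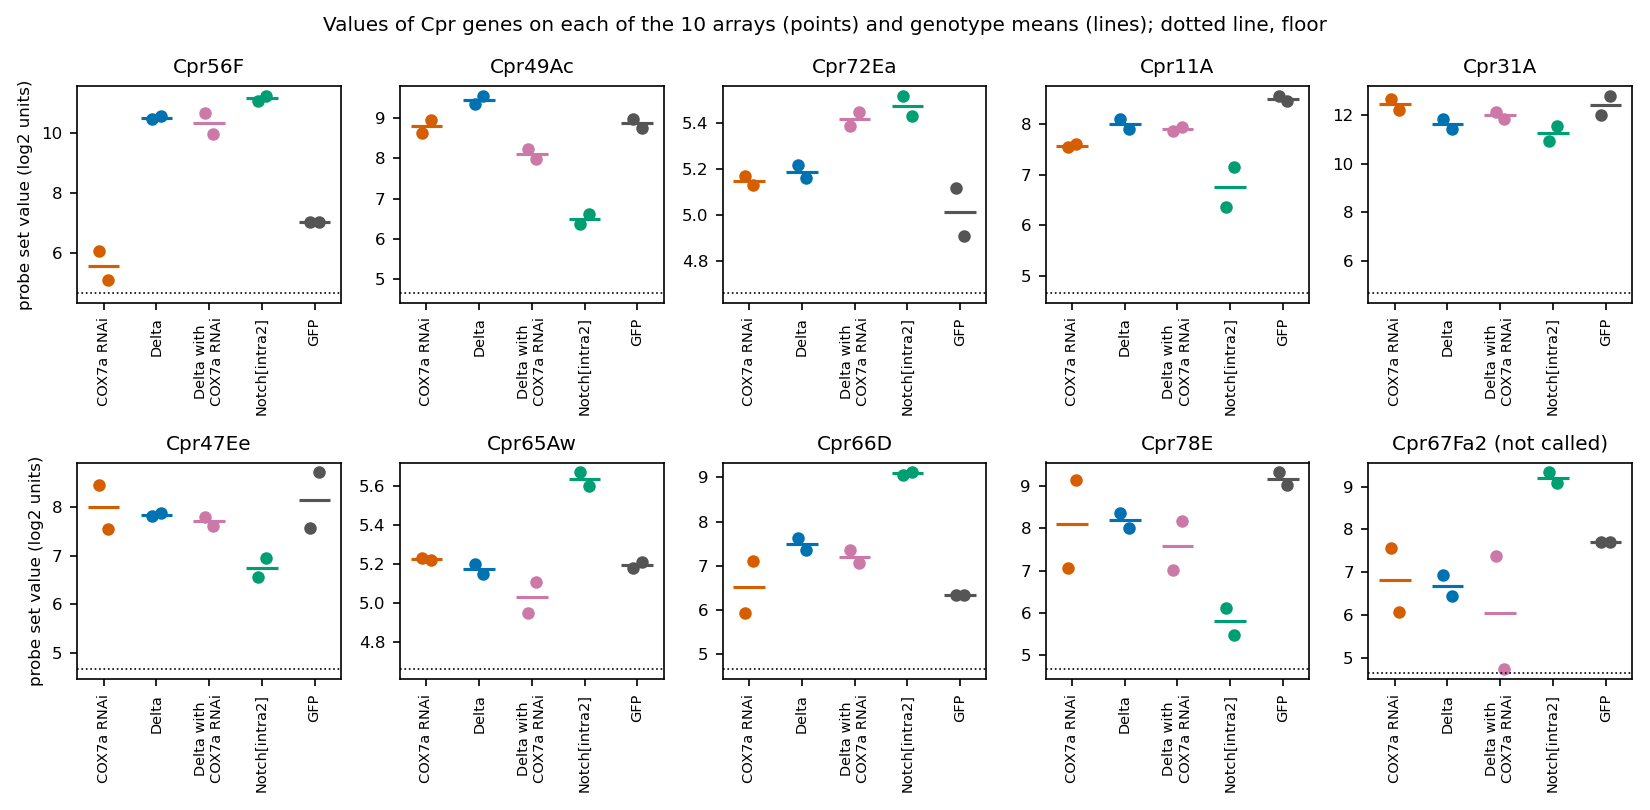
Probe set values (log2 units) of the 9 Cpr genes called in at least 1 comparison and of Cpr67Fa2, with a point for each of the 10 arrays, a line for each genotype mean and a dotted line for the floor; the vertical scales differ between panels. Notch[intra2] points lie at the top of the Cpr56F, Cpr66D, Cpr65Aw and Cpr67Fa2 panels and at the bottom of the Cpr49Ac, Cpr11A, Cpr78E and Cpr47Ee panels. The 2 replicates of Cpr67Fa2 in Delta with COX7a RNAi discs lie 2.65 apart.

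Cpr56F was the member with the widest range over the genotypes. Its values were 6.05 and 5.08 log2 units in COX7a RNAi discs, 10.47 and 10.57 in Delta discs, 10.69 and 9.98 in Delta with COX7a RNAi discs and 11.09 and 11.25 in Notch[intra2] discs, against 7.05 and 7.02 in GFP discs. The 6 arrays with Delta or Notch[intra2] all lay above both GFP arrays, and both COX7a RNAi arrays lay below them. In order of the means, Notch[intra2] stood highest (11.17), then Delta (10.52), Delta with COX7a RNAi (10.34), GFP (7.04) and COX7a RNAi (5.57). Neither difference between neighbours among the upper 3 was called, with the spread taken over all genotypes, though the Notch[intra2] and Delta arrays did not overlap. The difference was 0.65 between Notch[intra2] and Delta (95% interval -0.04 to 1.34, limma adjusted p = 0.232) and -0.18 between Delta with COX7a RNAi and Delta (-0.87 to 0.51, limma adjusted p = 0.834).

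In Delta discs Cpr56F was 11.2-fold higher than in GFP discs (log2 fold change 3.48 ± 0.30, SE, n = 2 each, limma adjusted p = 0.000707). It was the only call among the 44 tested members, 2.27% of them, against 2.38% of all tested genes in either direction and 1.34% called higher. An unadjusted limma p under 0.05 was reached by 6 members, with no share of all tested genes at that threshold to set beside it. Cpr66D had 7.63 and 7.36 in Delta discs, against 6.35 and 6.35 in GFP discs, a log2 difference of 1.15 ± 0.31 that was not called (limma adjusted p = 0.121). It was called with the compared groups alone (adjusted p = 0.00763), with array weights (0.0271) and without either COX7a RNAi array (0.0036 and 0.00359). Cpr67Fa2 also differed by at least 2-fold without a call (6.94 and 6.45 in Delta discs, against 7.71 and 7.72 in GFP discs, limma adjusted p = 0.596). The median over the members was -0.10 on the log2 scale, and over all tested genes 0.02.

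In Delta with COX7a RNAi discs 3 members were called against GFP, 6.82% of the tested members and 7.56% of all tested genes. Cpr56F was 9.87-fold higher (log2 fold change 3.30 ± 0.30, SE, n = 2 each, limma adjusted p = 0.000665). Cpr72Ea had 5.39 and 5.45 in Delta with COX7a RNAi discs, against 5.12 and 4.91 in GFP discs, 1.32-fold higher (limma adjusted p = 0.0389). Calls in this direction were 4.61% of all tested genes. Cpr49Ac was the call in the other direction, against 2.95% of all tested genes, with 8.22 and 7.98 in Delta with COX7a RNAi discs and 8.97 and 8.76 in GFP discs (1.70-fold lower, limma adjusted p = 0.021). Cpr67Fa2 (log2 difference -1.65) and Cpr78E (-1.57) differed by at least 2-fold without a call. The call of Cpr49Ac was lost without either GFP array or Delta with COX7a RNAi replicate 2, whereas that of Cpr56F held throughout. That of Cpr72Ea was lost without any one of the GFP, Delta, Delta with COX7a RNAi and Notch[intra2] arrays. With all arrays kept, the Cpr72Ea call was also lost under no filter (limma adjusted p = 0.0521), the compared groups alone (0.125) and array weights (0.0563). The comparisons with GFP share the same 2 GFP arrays, so their values are set side by side and are not independent of each other.

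In COX7a RNAi discs Cpr56F was also the only call, now in the other direction. It was 2.77-fold lower than in GFP discs (log2 fold change -1.47 ± 0.30, SE, n = 2 each, limma adjusted p = 0.034), with COX7a RNAi replicates that differed by 0.97. Calls were 2.27% of the tested members and 4.53% of all tested genes, with 1.48% lower and 3.05% higher. This call was lost without any one of the GFP, Delta or Notch[intra2] arrays. It was also lost without COX7a RNAi replicate 2, with a log2 fold change of -0.99. With all arrays kept, the call was lost under eBayes without a trend (limma adjusted p = 0.0561), robust eBayes (0.0964) and the compared groups alone (0.122). Cpr11A fell just outside the threshold, with 7.54 and 7.60 in COX7a RNAi discs, against 8.56 and 8.45 in GFP discs (log2 fold change -0.94 ± 0.22, limma adjusted p = 0.0501). Cpr11A was called under 5 of the alternatives that kept all arrays. Cpr78E had 7.05 and 9.14 in COX7a RNAi discs, against 9.32 and 9.01 in GFP discs, so its groups overlapped (limma adjusted p = 0.451). The median log2 fold change was 0 over the members and over all tested genes.

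**Figure D3:**
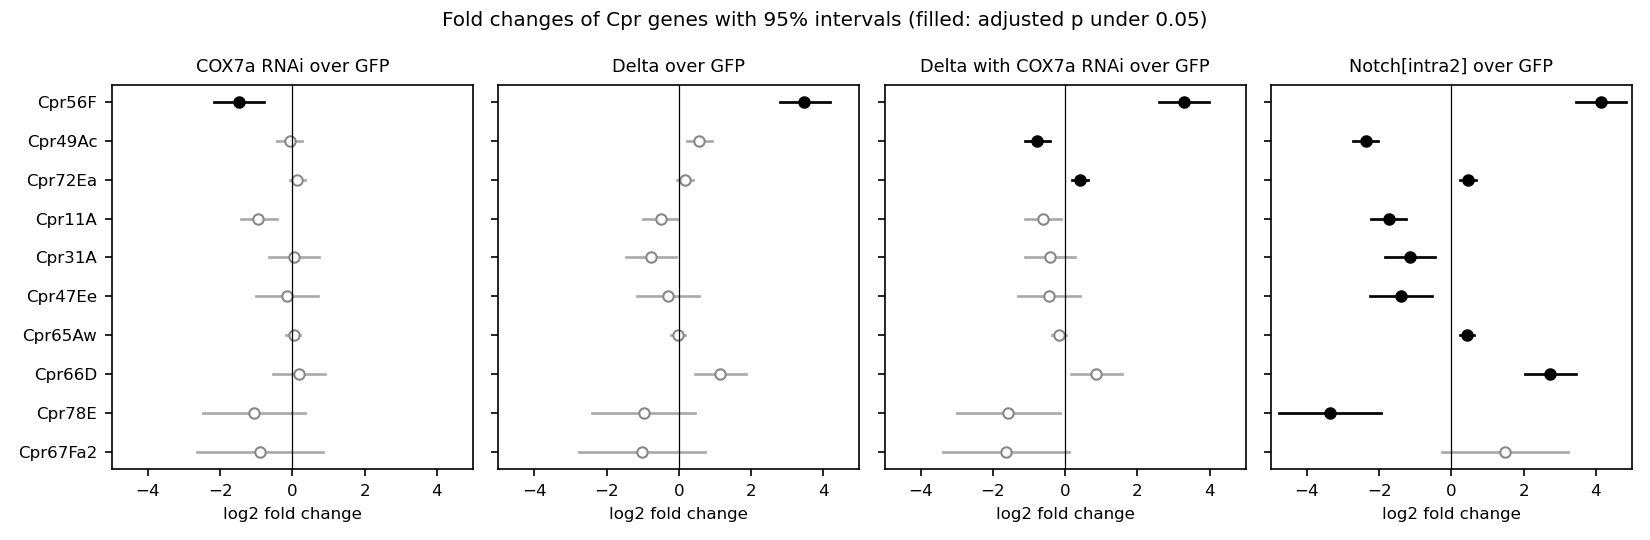
Log2 fold changes of 10 Cpr genes against GFP with 95% intervals, in a panel for each of COX7a RNAi, Delta, Delta with COX7a RNAi and Notch[intra2], with filled points for a limma adjusted p under 0.05. Cpr56F is the gene with a filled point in every panel, left of zero for COX7a RNAi (-1.47) and right of it in the other 3, and the Notch[intra2] panel has 9 filled points.

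Loss of COX7a within Delta discs was compared directly, Delta with COX7a RNAi against Delta. Cpr49Ac was called lower, 1 of the 44 tested members (2.27%), against 3.75% of all tested genes in either direction, 1.56% lower and 2.18% higher. It had 8.22 and 7.98 in Delta with COX7a RNAi discs, against 9.34 and 9.55 in Delta discs. The log2 fold change was -1.34 ± 0.15 (SE, n = 2 each), a 2.53-fold lower signal (limma adjusted p = 0.00216), and the call held under all alternatives. COX7a RNAi discs without Delta had 8.62 and 8.96, against 8.97 and 8.76 in GFP discs, with overlapping groups and a log2 difference of -0.08 ± 0.15 (limma adjusted p = 0.866).

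The interaction term asks whether the effect of COX7a RNAi with Delta differs from its effect without Delta. None of the 44 tested members was called, against 0.575% of all tested genes (0.264% higher and 0.31% lower). An unadjusted limma p under 0.05 was found for 8 members, but the share of all tested genes at that threshold is not given. Cpr49Ac came closest, with an interaction of -1.26 ± 0.21 (SE, limma adjusted p = 0.0524). It passed under 5 of the alternatives that kept all arrays, with adjusted p from 0.0399 to 0.0483. For Cpr56F the interaction was 1.29 ± 0.43 (SE, limma adjusted p = 0.331). Cpr11B had the highest value, 2.50 ± 1.05 (SE, limma adjusted p = 0.448), and its replicates were among the most scattered of the family.

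Notch[intra2] was also set against Delta, which sets the intracellular receptor beside its overexpressed ligand. Here 5 of the 44 tested members were called, 11.4%, against 9.55% of all tested genes, with 2 higher (3.25% of all genes) and 3 lower (6.30% of all genes). Cpr49Ac was 7.71-fold lower, with 6.36 and 6.63 in Notch[intra2] discs, against 9.34 and 9.55 in Delta discs (log2 fold change -2.95 ± 0.15, SE, n = 2 each, limma adjusted p = 1.69e-05). Cpr78E was 5.23-fold lower, with 6.12 and 5.48 in Notch[intra2] discs, against 8.37 and 8.00 in Delta discs (limma adjusted p = 0.0488). Cpr11A was 2.36-fold lower, with 6.36 and 7.16 in Notch[intra2] discs, against 8.10 and 7.90 in Delta discs (limma adjusted p = 0.00984). The higher pair were Cpr66D and Cpr65Aw. Cpr66D was 3.01-fold higher, with 9.06 and 9.11 in Notch[intra2] discs, against 7.63 and 7.36 in Delta discs (limma adjusted p = 0.0165). Cpr65Aw was 1.37-fold higher, with 5.67 and 5.60 in Notch[intra2] discs, against 5.20 and 5.15 in Delta discs (limma adjusted p = 0.0144). Of these calls that of Cpr49Ac held under every alternative. Those of Cpr66D and Cpr65Aw were lost without any one of the Delta and Notch[intra2] arrays, and that of Cpr11A without Delta replicate 1. That of Cpr78E was lost under 11 alternatives, 5 of which kept all arrays (no filter, no trend, robust eBayes, replicate block and quantile normalization), the others leaving out any one of the GFP, Delta and Notch[intra2] arrays. The highest value of this comparison, that of Cpr67Fa2, was not called, with 9.33 and 9.08 in Notch[intra2] discs, against 6.94 and 6.45 in Delta discs (log2 difference 2.51 ± 0.76, limma adjusted p = 0.0798). It was called under 5 alternatives, namely the replicate block (0.0377), the compared groups alone (0.00074), array weights (0.0256) and without either Delta with COX7a RNAi array (0.0118 and 0.0115). Cpr47Eg, Cpr47Ee and Cpr11B also differed by at least 2-fold without a call.

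Scatter between replicates was wide in several Cpr genes. The median residual SD over the 44 tested members was 0.154 log2 units, against 0.0798 over all tested genes. The 2 replicates of some genotype differed by more than 1 log2 unit in 11 members (25% of them), namely Cpr100A, Cpr11B, Cpr47Ec, Cpr47Ee, Cpr47Eg, Cpr49Af, Cpr66D, Cpr67B, Cpr67Fa2, Cpr78E and Cpr97Eb, against 2.03% of all tested genes. The genotype means spanned at least 1 log2 unit in 10 members (22.7%), against 6.13% of all tested genes. The means spanned less than 0.5 in 25 of the 44 tested members and in 7348 of all 8702 tested genes, a larger share. Cpr64Ab stayed within 6.50 to 6.68 and Cpr49Ag within 5.01 to 5.22 over all 10 arrays.

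The widest replicate differences were in Cpr47Eg (3.02, Notch[intra2]), Cpr67Fa2 (2.65, Delta with COX7a RNAi), Cpr78E (2.08, COX7a RNAi) and Cpr11B (1.91, Delta with COX7a RNAi), of which Cpr78E was the one with a call. Cpr47Eg had 5.24 and 8.26 in Notch[intra2] discs, against 5.12 and 4.88 in GFP discs, and 4.86 to 4.96 on the other 6 arrays, so 1 array carried the difference (limma adjusted p = 0.168). Cpr67Fa2 had 9.33 and 9.08 in Notch[intra2] discs, against 7.71 and 7.72 in GFP discs (log2 difference 1.49 ± 0.76, SE, n = 2 each, limma adjusted p = 0.243). Its replicates stood at 7.39 and 4.74 in Delta with COX7a RNAi discs and at 7.58 and 6.07 in COX7a RNAi discs. Both differences widened the spread used for every comparison. Fitted on the Notch[intra2] and GFP arrays alone, Cpr67Fa2 was called with a limma adjusted p of 0.000362. Calls over all genes were 1625 in that fit, against 1144 in the reported one. Cpr67Fa1 and Cpr67Fa2 are near-identical copies that also share a probe set, which was not used, so signal for either may come in part from the other. Cpr11B had 4.07 and 4.00 in COX7a RNAi discs, 3.94 and 4.81 in Delta discs, 4.78 and 6.69 in Delta with COX7a RNAi discs and 4.60 and 6.15 in Notch[intra2] discs, against 5.93 and 4.44 in GFP discs. Both COX7a RNAi arrays were at or below the floor and below both GFP arrays, of which replicate 2 (4.44) was itself below the floor. By the means the signal was at least 1.44-fold lower, a bound that rests on GFP replicate 1. It was not called (limma adjusted p = 0.51), and the other 3 genotypes overlapped GFP.

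**Figure D4:**
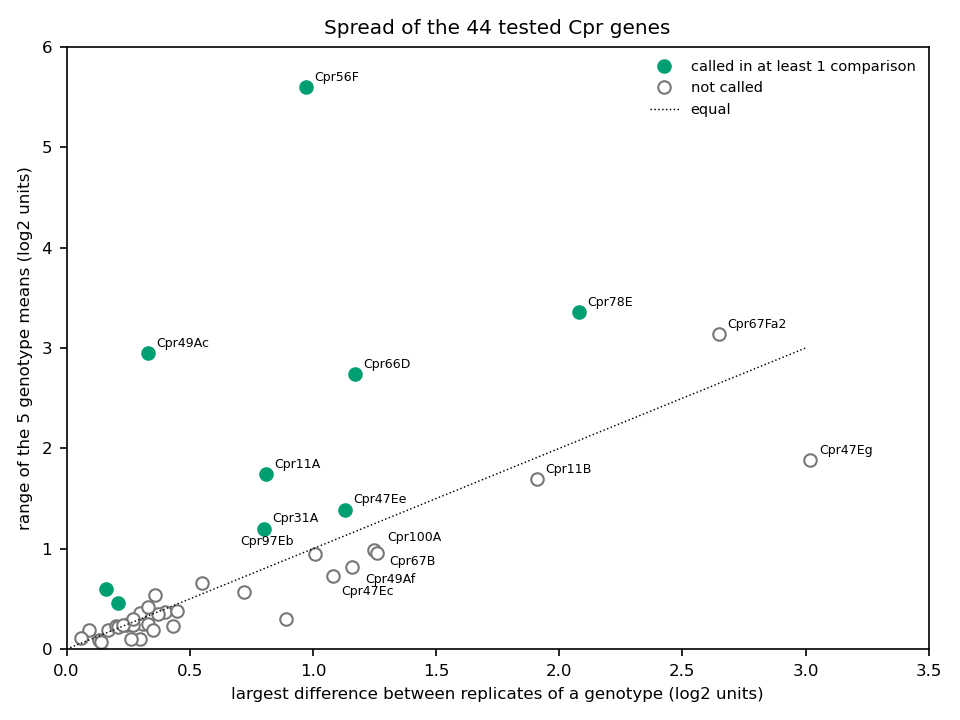
Range of the 5 genotype means (vertical axis, log2 units) against the largest difference between replicates of a genotype (horizontal axis, log2 units) for the 44 tested Cpr genes, with filled points for genes called in at least 1 comparison and a dotted line of equality. Cpr56F (5.60 against 0.97) and Cpr49Ac (2.95 against 0.33) lie far above the line, while Cpr47Eg (1.88 against 3.02) lies below it.

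Most Cpr genes lie in clusters, and called genes were found both inside and outside the bands with at least 3 members. In the gene table of RefSeq, 32 of the 66 members are on chromosome arm 3L and 20 on 2R. Of the 10 bands with at least 3 members, 4 held a called gene, and each held 1. These were Cpr47Ee, 1 of 5 tested members in band 47E, Cpr49Ac, 1 of 3 in 49A, Cpr65Aw, 1 of 2 in 65A, and Cpr72Ea, 1 of 3 in 72E. In bands 62B, 64A, 65E, 67F, 76B and 78C no member was called, with 1, 3, 3, 1, 4 and 2 members tested in that order. In 62B, 64A, 65E, 67F, 72E and 76B no other protein-coding gene lies between the members in the RefSeq table. The other called genes (Cpr56F, Cpr66D, Cpr11A, Cpr31A and Cpr78E) are in bands with fewer than 3 members. Called here means called in at least 1 comparison. The share of all tested genes called so is not given, so these counts cannot be called many or few.

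Other genes of cuticle and chitin also had calls in both directions in Notch[intra2] against GFP, all values being log2 fold changes. Beside the counts below, 6.03% of all tested genes were called higher and 7.11% lower in this comparison. Of 13 tested genes of the other Rebers-Riddiford cuticle proteins, 2 were higher and 1 lower, with a median log2 fold change of 0.07. Lcp65Ag3, which has near-identical copies in its cluster, differed by 1.46, Lcp65Af by 0.49 and Pcp by -0.84. Of 13 tested Tweedle genes, which encode another family of cuticle proteins, 1 was called (TwdlT, -0.35), and none was called in the other 6 comparisons, where 4 in Notch[intra2] against Delta and 0 elsewhere had an unadjusted limma p under 0.05. Of 9 tested obstructor and peritrophin genes, which encode chitin-binding proteins without that consensus, 1 was lower (Gasp, -1.37). Of 13 tested genes for chitin synthesis, export and organisation, 3 were higher and 4 lower, among them Cda5 (1.22) and serp (-1.17), which encode chitin deacetylases.

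Chitinase and Idgf genes encode chitin-degrading enzymes and their growth factor relatives. Of 15 tested, 7 were lower and 1 higher (Cht7, 0.59) in Notch[intra2] discs than in GFP discs. Over all tested genes 7.11% were lower and 6.03% higher. Cht10 differed by -1.63, Cht6 by -1.06 and Idgf2 by -0.95, and the median was -0.24. Of 8 tested zona pellucida genes of the apical matrix, 1 was higher (mey, 1.40) and 2 lower (qsm, -0.95, and dpy, -0.52). Of 13 tested genes for sclerotisation and pigmentation, yellow-b was lower (-1.26) and t, the tan gene, was at least 5.24-fold higher, since it was not above the floor in GFP discs. None of 9 tested ecdysone response transcription factors was called in this comparison, and 0 had an unadjusted limma p under 0.05. Of 4 tested Imp genes, named for their induction by ecdysone in discs, ImpE1 was higher (0.85) and ImpE2 lower (-1.89).

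In the other comparisons with GFP most of these lists had fewer calls than in Notch[intra2] against GFP. The obstructor and peritrophin genes, the ecdysone response transcription factors and the Imp genes had as many or more. Over all tested genes 4.53% were called in COX7a RNAi, 2.38% in Delta and 7.56% in Delta with COX7a RNAi discs. Lcp65Af was lower in COX7a RNAi discs (-0.63) and in Delta with COX7a RNAi discs (-0.99), also against Delta (-0.62), and was higher in Notch[intra2] discs than in GFP discs, as given above. The yellow gene y was higher in COX7a RNAi discs (2.40) and in Delta with COX7a RNAi discs (1.03), with an interaction of -1.35. ImpL2, which encodes a secreted insulin-binding protein, was higher in the same genotypes (2.87 and 2.86) and lower in Delta discs (-0.59). ImpE2 was lower in COX7a RNAi (-1.90), Delta (-1.54) and Delta with COX7a RNAi discs (-1.52). Cht2 was lower in all 3 (-0.27, -0.39 and -0.31), and obst-E was lower in Delta discs (mean level 9.45, against 10.45 in GFP discs). ChLD3 was lower in Delta (-0.94) and Delta with COX7a RNAi discs (-0.75), and exp was higher in Delta discs (0.30). Of the ecdysone response transcription factors Hr39 was higher in Delta with COX7a RNAi discs, by 0.64 against GFP and by 0.57 against Delta.

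Markers of other cell types moved with the Notch[intra2] comparison, and their part in the Cpr results was not tested. Trachea is lined by cuticle and can stay attached to discs. Of its 6 markers 5 had a probe set, 4 were above the floor on all arrays and none was at or below it on all of them. Their summed level, on the linear scale, was 13994 to 14131 in COX7a RNAi, 15994 to 16734 in Delta, 13652 to 14353 in Delta with COX7a RNAi and 7937 to 8224 in Notch[intra2] discs, against 17754 to 18201 in GFP discs, so every other genotype lay below GFP. In Notch[intra2] discs Gasp and serp were called lower, as in COX7a RNAi discs, and in Delta with COX7a RNAi discs verm was called lower as well. Glial markers (5 with a probe set, gcm at or below the floor on every array) summed to 2975 to 3101 in Notch[intra2] discs, against 3648 to 4190 in GFP discs, with repo (-2.14) and moody (-1.38) called lower. In Delta with COX7a RNAi discs nrv2 was the glial marker called lower (-0.26). Muscle markers (3 of 7 with a probe set) summed to 188 to 214, against 421 to 480 in GFP discs, with TpnC73F called lower (-1.58). Blood cell markers (7, with srp at or below the floor) summed to 299 to 469, against 232 to 246 in GFP discs, and none was called.

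Neurosecretory markers (4) summed to 307 to 469 in COX7a RNAi, 435 to 512 in Delta, 110 to 116 in Delta with COX7a RNAi and 535 to 977 in Notch[intra2] discs, against 101 to 126 in GFP discs. Akh was called higher in COX7a RNAi (2.68) and Notch[intra2] discs (3.75), and sNPF and AstC in Delta discs (at least 11.1-fold and 4.33-fold). No fat body, neuron or salivary gland marker was called against GFP, and apolpp, para, Sgs3, Sgs4 and Sgs7 were at or below the floor on every array. Of the 10 eye-antenna disc markers themselves, 3 were higher and 3 lower in Notch[intra2] discs, against 6.03% and 7.11% of all tested genes. Among them were eyg (2.69), Dll (-2.46) and ss (at least 9.86-fold lower).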

How the data were processed

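Expression was measured on 1-colour Affymetrix arrays in 10 samples, each from 50 ng of total RNA of pooled discs, per the labels' protocols. The table as deposited gives log2 values, 1 per probe set. Per the submitters' processing notes the tools were RMA, Transcriptome Analysis Console 3.0.0.466 and Affymetrix Expression Console, with no role for each. RMA makes arrays alike by quantile normalization, so a shift shared by most genes would be lost. Detection calls, scan dates and a genome build are not given in the sources used here, so batches were not tested and no coordinates are printed. The number of arrays limits the precision.

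The table held 18952 probe sets, of which 183 controls were left out, and 13647 had 1 gene symbol, 402 several and 4720 none in the platform annotation, which can be old. All 66 Cpr symbols matched the RefSeq gene table (Release 6 plus ISO1 MT), used for names, chromosome arms and neighbours. Of several probe sets of a gene the one highest on average was used. Genes above the floor on 2 or more arrays were tested, which kept 8702 of 11982 genes. limma 3.58.1 in R 4.3.3 was fitted on all of these, with a mean for each genotype, all 10 arrays together (residual degrees of freedom, 5), and eBayes with an intensity trend. Calls took a two-sided p under 0.05 after Benjamini-Hochberg adjustment over all genes tested. Counts of genes with an unadjusted p under 0.05 have no share over all tested genes beside them, so they cannot be called many or few. Where a group lay at or below the floor, a fold change was given as a bound.

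The members and lists were chosen with earlier results of these data known. Named are Cpr genes called in at least 1 comparison or above the floor on all arrays, the 3 or fewer most changed called genes per list and comparison, and COX7A and Delta, other Cpr genes where a count was small, and, chosen after their values were seen, members at least 2-fold apart or with wide replicate differences, and called marker genes. The labels call the replicates biological and do not say more. They share only numbers across genotypes. The alternatives were floors at the 30th and 60th percentile, no filter, eBayes without a trend or robust, a replicate block, a fit on the compared groups, 2 scalings, the mean of a gene's probe sets, array weights and each array left out in turn.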

Additional observations from a re-analysis of the deposited data

How the results depend on the processing

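Over the 7 comparisons 20 calls were made for 9 Cpr genes, and no fold change of them turned its sign under any of the 21 alternatives, or the 20 that gave a value for Cpr65Aw and Cpr72Ea, which a floor at the 60th percentile left untested. Of the calls, 8 held throughout, those of Cpr56F in Delta, Delta with COX7a RNAi and Notch[intra2] against GFP, of Cpr49Ac in Notch[intra2] against GFP, Notch[intra2] against Delta and Delta with COX7a RNAi against Delta, and of Cpr66D and Cpr11A in Notch[intra2] against GFP. The other 12 were lost under at least 1 alternative. The share of all tested genes called in at least 1 comparison is not given, so 9 genes cannot be called many or few. With a floor at the 60th percentile 14 Cpr genes, not 44, were above background on at least 2 arrays. In COX7a RNAi against GFP 1 call became 2 with that floor, centred medians, quantile normalization or the mean of probe sets (Cpr11A joined), and 0 without a trend or with robust eBayes, while with the compared groups alone, or without either Notch[intra2] array, the 1 call was Cpr11A and not Cpr56F. In Delta against GFP 1 became 6 with the compared groups alone and 3 with array weights, while calls over all genes, 207 in the reported fit, became 366 and 433. In Notch[intra2] against Delta 5 became 8 with the compared groups alone (all genes, 968 against 831 reported). In COX7a RNAi against GFP the calls over all genes, 394 reported, were 356 to 389 where a member was added, 276 without a trend and 383 with robust eBayes. For the interaction 0 became 1 (Cpr49Ac) with that floor, no filter, robust eBayes, centred medians or the mean of probe sets. The cause of these changes was not tested.

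Leaving out each array in turn gave 0 to 2 calls in COX7a RNAi, 1 to 2 in Delta, 1 to 5 in Delta with COX7a RNAi and 5 to 9 in Notch[intra2] against GFP, 1 to 2 in Delta with COX7a RNAi and 1 to 6 in Notch[intra2] against Delta, and 0 to 1 for the interaction, where the lone replicate left in a genotype is assumed to vary like the others. In the same order, calls over all genes ran from 128 to 445 (394 reported), 74 to 245 (207), 206 to 771 (658), 541 to 1252 (1144), 98 to 372 (326), 303 to 978 (831) and 16 to 42 (50). In COX7a RNAi against GFP the count was 0 without either GFP or Delta array or COX7a RNAi replicate 2, and 2 without COX7a RNAi replicate 1 (Cpr66D joined). In Notch[intra2] against GFP it was 5 without GFP replicate 2 or Notch[intra2] replicate 2. In Delta with COX7a RNAi against GFP it was 1 without either GFP array or Delta with COX7a RNAi replicate 2, and 5 without either COX7a RNAi array. In Notch[intra2] against Delta it was 1 without Delta replicate 1, 2 without Notch[intra2] replicate 2 and 3 without Delta replicate 2 or Notch[intra2] replicate 1. In Delta against GFP it was 2 without either COX7a RNAi or Notch[intra2] array or Delta replicate 2. Without Delta replicate 2 it was also 2 in Delta with COX7a RNAi against Delta, and without COX7a RNAi replicate 1 it was 1 for the interaction. Without Notch[intra2] replicate 1, Cpr47Eg was called (log2 fold change 3.26, limma adjusted p = 2.12e-05), with 1 Notch[intra2] array left.

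Same-numbered replicate deviations gave r from -0.22 to 0.38 over 10 pairs of genotypes, 2 of them above 0.1, so pairing by number stays undecided. With the number as a block the counts were 1, 1, 3 and 7 in COX7a RNAi, Delta, Delta with COX7a RNAi and Notch[intra2] against GFP, 1 and 5 in Delta with COX7a RNAi and Notch[intra2] against Delta, and 0 for the interaction. In the same order, calls over all genes were 336 (394 reported), 192 (207), 667 (658), 1140 (1144), 322 (326), 854 (831) and 35 (50). The block ended the calls of Cpr31A (0.0575) and Cpr47Ee (0.0623) in Notch[intra2] against GFP and of Cpr78E (0.057) in Notch[intra2] against Delta, where it added Cpr67Fa2 (limma adjusted p = 0.0377). Signals near the floor limit what can be said of the 22 members not tested and of small changes in the dim ones.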
